A study of Ovis aries with 2 samples.

Results

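Cells of the layers above the basal epidermis were picked out of single-cell RNA-seq of lamb skin by a rule on 15 genes, and 189 of 14037 cells met it. A cell was kept when KRT1 and KRTDAP, genes of the layers above the basal layer, summed to at least 50 UMIs per 10000 (CP10K, where a UMI is 1 captured RNA molecule) and KRT6A, a companion layer keratin, was under 20 CP10K. It also needed a larger sum of FLG, CNFN, LYPD2, SPINK7, SPINK9 and SERPINA12 than of KRT79, CST6, ASPRV1, LIPK, CRCT1 and ATP6V1C2. The straight library held 127 of these cells among 6452, and the curly library 62 among 7585. The rule reads measured levels, so the levels of its 15 genes in these cells are a description and no finding.

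The skins came from the body side of Hu sheep lambs at day 3, 3 with straight wool and 3 with curly (waved) wool, and neither group was treated or carried a labelled allele. The 3 skins of a wool type were pooled before dissociation, and isolated hair follicles were mixed with whole skin, so each wool type is 1 library and a share of cells also depends on this mixing. No spread between lambs could be measured, no difference between wool types was tested, and every interval below is at 95% and covers counting error only.

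In the epidermis, basal cells with KRT5, KRT14 and KRT15 stop dividing, leave the basement membrane and switch to KRT1 and KRT10, the keratins of the spinous layer. In the granular layer the cells then make filaggrin (FLG), loricrin (LOR) and other proteins that are cross-linked under the membrane into the cornified envelope, and they secrete lipids into the space between the cells. Serine proteases of the kallikrein family (KLK) later cut the junctions that hold the outermost cells, and inhibitors such as SPINK5 and SPINK9 hold these proteases back.

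Of the 6 genes on the side that selects the cells, SPINK7, SPINK9 and LYPD2 were widespread, while FLG and CNFN were not. SPINK7 had a UMI in 79.5% of the straight and 82.3% of the curly cells. SPINK9, an inhibitor of KLK5, had one in 77.2% and 75.8%. LYPD2, a small protein of the LY6 family, had one in 74.8% and 79.0%. FLG had a UMI in 29.9% (22.1 to 38.7%) and 27.4% (16.9 to 40.2%), and CNFN, the cornified envelope protein cornifelin, in 16.5% and 50%. SERPINA12, a serpin, was found in 28.3% and 46.8%. A name taken from FLG and CNFN would leave out most of the cells, so they are called SPINK7 and SPINK9 cells in what follows. This name is a label for the group, since both genes were found in 76 of the 127 straight and 38 of the 62 curly cells, and neither in 4 and 2. In VIM-positive cells (VIM at 20 CP10K or more, KRT5 and KRT14 together under 20), where these genes should be silent, SPINK7 had a UMI in 6.29% and 5.02% of cells and FLG in 1.67% and 3.67%, at median depths of 5620.5 and 4536 UMIs against 10709 and 9102.5 in the SPINK7 and SPINK9 cells.

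A cell seldom carried all 6 of these genes. In the straight library 43 of 127 cells had a UMI of exactly 3 of them and 6 cells had all, and in the curly library 19 of 62 had 3 and 6 had all. At least 3 were found in 65.4% of the straight and 80.6% of the curly cells, and after thinning each cell to 2000 UMIs, with 23 and 8 shallower cells left out, in 41.3% and 53.7%. SPINK7 and LYPD2 were found together in 73 of the 104 straight cells with at least 2000 UMIs, and in 37 of the 54 such curly cells. FLG and CNFN were found together in 13 of the 104 and 13 of the 54.

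**Figure D1:**
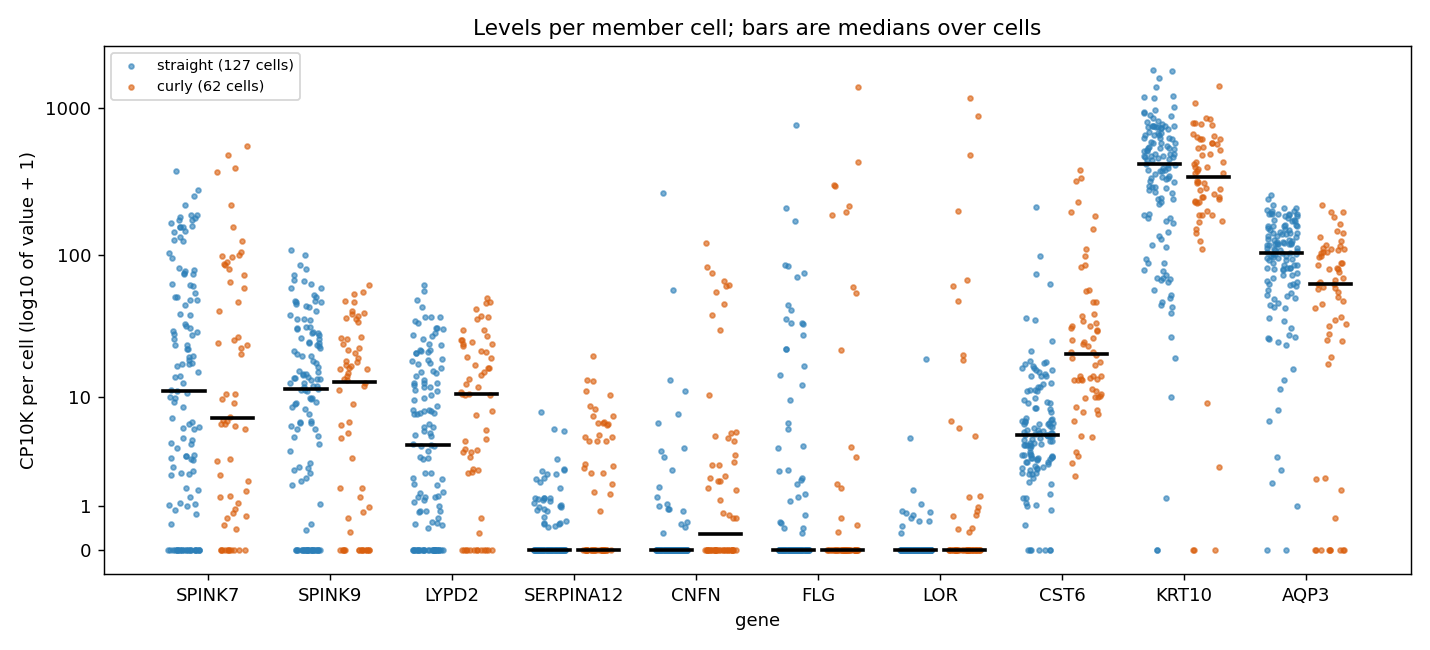
Levels per cell of 10 genes in the 127 straight (blue) and 62 curly (orange) SPINK7 and SPINK9 cells, as CP10K on a log10 axis of value + 1; each point is a cell and each bar is the median over cells. SPINK7, SPINK9 and LYPD2 have medians between 4.14 and 13.0 CP10K, whereas FLG, LOR and SERPINA12 have medians of 0, with a few cells above 100 CP10K for FLG in both libraries and for LOR in the curly library.

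The share of SPINK7 and SPINK9 cells was 1.97% (1.64 to 2.34%) in the straight and 0.817% (0.627 to 1.05%) in the curly library. Among all cells that passed the KRT1, KRTDAP and KRT6A limits they were 127 of 657, or 19.3% (16.4 to 22.6%), and 62 of 1053, or 5.89% (4.54 to 7.49%). The rest were mostly KRT79 and CST6 cells, 502 straight and 981 curly, and 28 and 10 cells had equal sums. This order of the libraries depends on how 1 gene of the rule is treated. CST6, a cysteine protease inhibitor of the cornified layers, had a UMI in 89.1% of straight and 99.1% of curly VIM-positive cells, and its summed level there was 4.32 and 17.7 CP10K, so it also moves between the libraries in cells that should not make it. With CST6 left out of the rule, 227 straight (3.52%) and 294 curly cells (3.88%) qualified and the order turned. These shares lay close to each other and no interval was set on them. The cells let in this way are KRT79 and CST6 cells, or have equal sums, under the full rule. The cells that qualified held 3983 and 48136 CST6 UMIs, against 803 and 3998 under the full rule. With the VIM-positive median of CST6 (3.97 and 11.7 CP10K) taken off in each library, 191 (2.96%) and 169 (2.23%) qualified and the order held. The part of free RNA in the share was not tested further, and an uneven share of epidermis between the suspensions cannot be told apart from it.

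**Figure D2:**
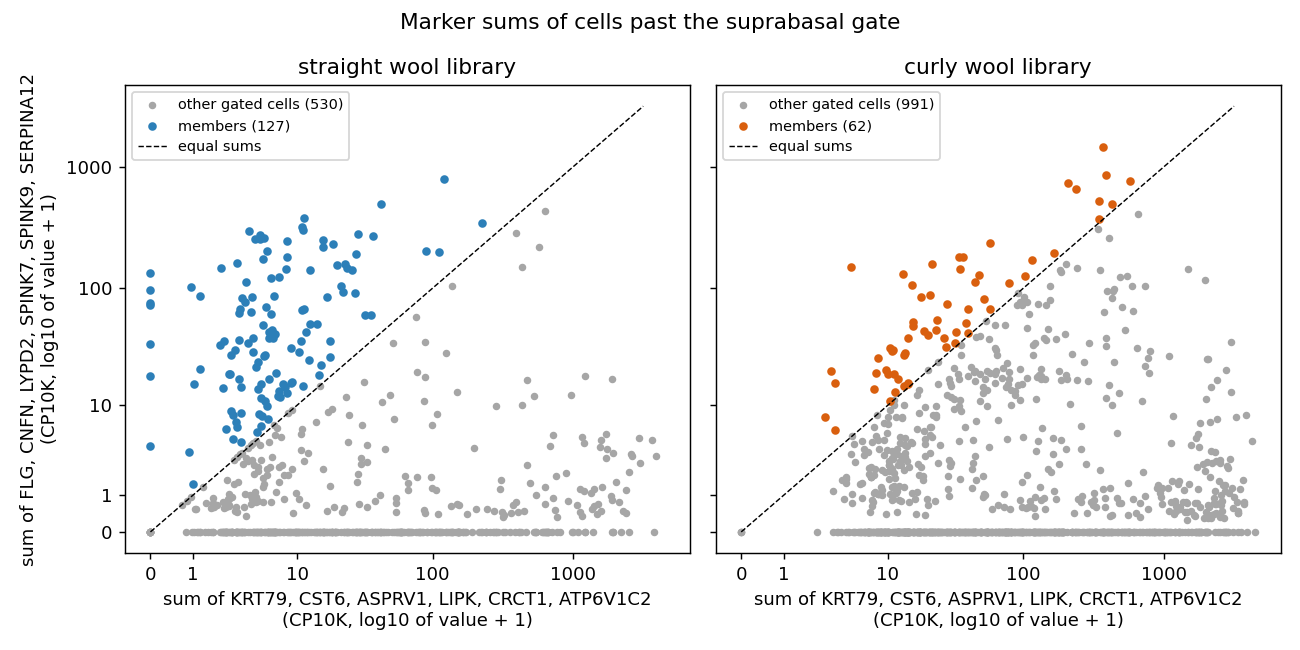
Each point is a cell past the KRT1, KRTDAP and KRT6A limits, with the summed KRT79-side genes on the x axis and the summed FLG-side genes on the y axis (CP10K, log10 axes of value + 1). The 127 straight and 62 curly members lie above the dashed line of equal sums, and the curly cells as a whole lie further right, with a median KRT79-side sum of 21.3 CP10K in curly against 5.74 CP10K in straight members.

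Cells near the border were common in the straight library. The members nearest to the border exceeded the other sum by 0.499, 0.934 and 1.13 CP10K in straight and by 0.455, 1.30 and 1.48 CP10K in curly, and the cells just outside fell short by values of -0.531, -0.554 and -0.737 and of -0.961, -1.18 and -1.39 CP10K. Within 5 CP10K of equality lay 168 of the 657 straight and 64 of the 1053 curly gated cells. The lowest KRT1 and KRTDAP sum of a member was 54.4 and 62.0 CP10K, and the highest among cells under the limit that met the remaining terms was 48.4 and 31.7 CP10K. The highest KRT6A of a member was 18.05 and 5.22 CP10K, and no cell was kept out by KRT6A alone.

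These few cells held a large part of the library's RNA of several genes. For SPINK9, LYPD2, SPINK7, FLG and CNFN this was partly built in, since their sum chose the cells. The straight cells held 81.9% of all SPINK9 UMIs of their library (2335 of 2852), 85.1% of LYPD2 and 79.6% of SPINK7. The curly cells held 64.9%, 49.9% and 56.1%. Some genes outside the rule, taken from the 10 leading genes against all other cells, went the same way. KRT4, a keratin best known from stratified mucosa, was held to 85.6% and 57.1%, with most of the curly UMIs of these cells in a single cell. The water channel gene AQP5 was held to 87.4% and 64.1%. S100A7A, of the psoriasin family of antimicrobial S100 proteins, was held to 90.9% and 81.7%. Other genes outside the rule were held less: KRT10 to 28.4% and 7.69%, KRT2 to 39.8% and 10.0%, AQP3 to 22.7% and 10.2%, and LOR to 2.59% and 20.3%. FLG was held to 25.4% in straight and to 54.6% in curly, where it stood above LYPD2, and CNFN to 34.5% and 22.9%, with 50% and 70.1% of the CNFN UMIs in the KRT79 and CST6 cells.

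As a group the cells carried genes of the suprabasal epidermis, as the rule asked. The KRT1 and KRTDAP limit divides them from the cells with basal keratins. Genes that go with KRT1, such as KRT10, therefore had to differ, and the levels are a description. KRT10, which was no part of the rule, stood at 42199 CPM (UMIs of a gene summed over the cells, per 1000000 of all their UMIs) in the straight and 34582 CPM in the curly cells, against 501 and 658 CPM in cells with basal keratins. It had a UMI in 98.4% and 95.2% of the cells, with medians of 418 and 340 CP10K per cell. SBSN and DMKN, secreted products of the upper layers, were at 7285 and 10125 CPM and at 6084 and 8340 CPM, against 507 and 557 CPM and 443 and 461 CPM in cells with basal keratins. KRT2, a keratin of the late spinous layer, was at 514 and 812 CPM against 10.9 and 23.2 CPM. Not all cells were alike. In the 42 straight cells with the highest sums of KRT5, KRT14 and KRT15, KRT5 was at 8621, KRT14 at 11674 and KRT10 at 22249 CPM.

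Markers of several other cell types were low but not all absent, and some lists were not low. Of 4 melanocyte genes, PMEL, MLANA and DCT were at 0 in both libraries, and the remaining gene had 10 and 3 UMIs. MLANA and DCT were also at 0 in the KRT79 and CST6 cells and in VIM-positive cells. The endothelial list gave 2 and 13 UMIs in all, with CDH5 at 0 in both. The immune list gave 71 and 11 UMIs, with TYROBP and CD3E at 0 in both. The 8 dermal genes summed to 208 and 268 CPM, against 9177 and 10576 CPM in VIM-positive cells. Inner root sheath keratins summed to 361 and 511 CPM, against 204 and 608 CPM. The 8 contractile genes summed to 34.5 and 2026 CPM, against 587 and 3671 CPM, and reached 20 CP10K in 4 curly cells. Stem and outer root sheath genes summed to 1409 and 728 CPM, against 112 and 93.6 CPM. The summed companion layer genes, KRT17 nearly all, stood at 2436 and 2104 CPM, and ranged from 0 to 301 and 0 to 291 CP10K per cell.

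Against 2533 straight and 2617 curly cells with basal keratins (KRT5 and KRT14 at 50 CP10K or more, the suprabasal sum under 50), the genes of the differentiation programme stood higher and those of the basal layer lower in both libraries. Of 10847 genes with at least 100 UMIs, 564 (5.2%) were at least 2-fold higher and 1328 (12.2%) at least 2-fold lower in both. The gene lists below count genes with at least 20 UMIs, of which 6.34% were higher and 11.1% lower. All 16 members of the basal keratin and adhesion list were lower, 2 of which, KRT5 and KRT14, chose the cells with basal keratins. The other 14 included COL17A1, a hemidesmosome collagen, at 131 and 17.4 CPM against 338 and 370 CPM. All 6 suprabasal keratins outside the rule were higher. The groups lie on opposite sides of the KRT1 and KRTDAP limit, so genes that go with those had to differ, and the counts are a description. Cornified envelope genes were higher for 11 of 19 and lower for none, and barrier lipid genes higher for 18 of 31 and lower for 1, CERS4. Among the barrier lipid genes, ABCA12, the lipid carrier of lamellar granules, was at 21.1 and 44.9 CPM against 1.74 and 1.86 CPM. The cells with basal keratins were a mixed group, with outer root sheath and stem-like cells among them. In 51 straight and 283 curly of them the 8 contractile genes summed to 20 CP10K or more. The 5 gland genes did so in 60 and 203.

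The desmosome genes divided by layer. DSG1, DSC1, DSP, JUP and CDSN were at least 2-fold higher in the SPINK7 and SPINK9 cells than in cells with basal keratins, and DSG2, DSG3, DSC2 and DSC3, the cadherins of the lower layers, at least 2-fold lower, of 14 genes in all. DSG1 was at 67.7 and 62.2 CPM against 21.9 and 18.1 CPM. DSG3 was at 14.1 and 4.34 CPM against 35.1 and 26.3 CPM. Of 37 differentiation factors and Notch genes, 10 were higher and 4 lower. Those higher included GRHL3 and ZNF750, regulators of late differentiation, with ZNF750 at 75.4 and 101 CPM against 14.3 and 16.7 CPM, and the ETS factor ELF5 at 197 and 165 CPM against 1.79 and 1.65 CPM. Of 18 cycling genes none was higher and 6 were lower.

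What set the cells apart from the KRT79 and CST6 cells of the same library was a narrow group of genes. Of 7978 genes outside the rule with at least 100 UMIs, 185 (2.32%) were at least 2-fold higher in both libraries and 195 (2.44%) at least 2-fold lower. The median ratio of all these genes was 0.14 in straight and 0.24 in curly on the log2 scale, and with each library centred on it the split was 123 higher and 263 lower. Groups of cells defined by opposite sides of 1 rule have to differ in genes that go with the rule genes, so these counts carry no test.

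S100A7A was at 13736 CPM in the straight and 6889 CPM in the curly SPINK7 and SPINK9 cells, against 54.1 and 49.1 CPM in the KRT79 and CST6 cells. It was found in 77.2% and 64.5% of the cells, and 7 straight and 3 curly cells held most of its UMIs. AQP5, known from glands that secrete water, was at 161 and 85.4 CPM against 0.514 and 0.0881 CPM, but only 18.9% and 21.0% of the cells had a UMI of it. Of the 5 gland genes in the table, AQP5 alone was at least 2-fold higher than in cells with basal keratins in both libraries, and the gland keratins KRT7, KRT8, KRT18 and KRT19 were at least 2-fold lower. That comparison group itself held cells with summed gland genes at 20 CP10K or more, 60 in straight and 203 in curly.

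KRT4 was at 793 and 373 CPM against 16.8 and 13.7 CPM, in 29.1% and 24.2% of cells, and 1 curly cell held 54.3% of the curly UMIs. HSD11B2, which turns cortisol into cortisone, was at 76.8 and 79.6 CPM against 1.54 and 1.14 CPM. SERPINE2, an inhibitor of thrombin and other serine proteases, was at 466 and 449 CPM against 10.1 and 13.0 CPM, with a UMI in 49.6% and 66.1% of cells. The log2 ratios of curly over straight were -0.05 (-0.25 to 0.14) for SERPINE2 and 0.06 (-0.44 to 0.53) for HSD11B2, but they depend on which cells are counted. Leaving CST6 out of the rule lets in KRT79 and CST6 cells. SERPINE2 was then at 262 and 111 CPM, a log2 ratio of -1.24, and HSD11B2 at 44.6 and 17.4 CPM, one of -1.35.

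The other genes among the 10 highest were SLC45A4, at 71.9 and 62.2 CPM against 4.62 and 2.99 CPM, and the loci LOC101104285, LOC114113226, LOC101110777 and LOC101116828, which have no gene symbol in the table. LOC101116828 was at 39.5 and 69.5 CPM against 1.54 and 3.52 CPM. LOC101110777 had 31 UMIs in the straight SPINK7 and SPINK9 cells and none in the straight KRT79 and CST6 cells, which makes it at least 42.5-fold higher against a floor of 3 UMIs over that group. NCCRP1 and WFDC5, of the WAP inhibitor family, were among the 10 leading genes against all other cells, in a comparison where 772 of 13181 genes (5.86%) were at least 2-fold higher and 1436 (10.9%) lower in both libraries (8.67% and 9.22% at a minimum of 20 UMIs). NCCRP1 was at 225 and 544 CPM against 2.57 and 10.1 CPM in all other cells, and WFDC5 at 9.87 and 92.6 CPM against 0.142 and 2.03 CPM.

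**Figure D3:**
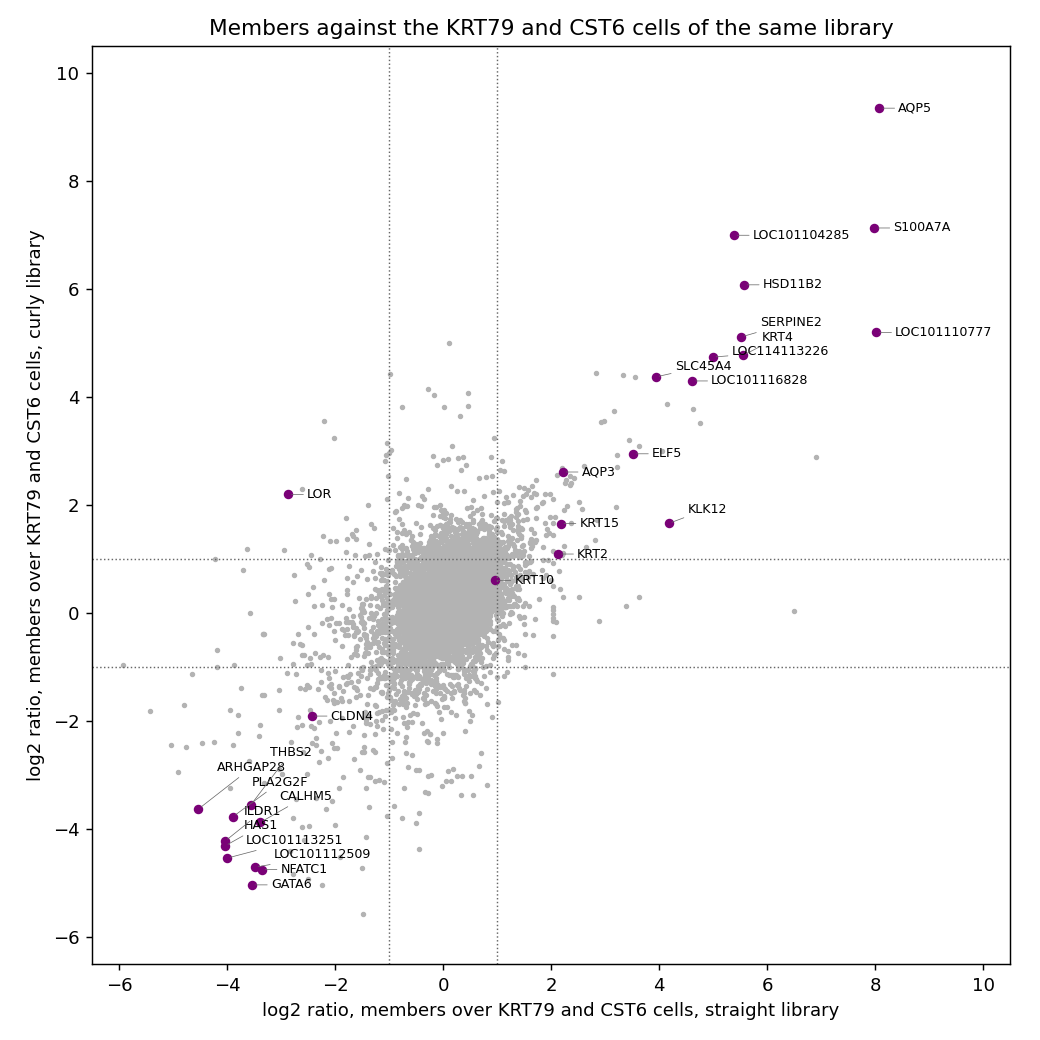
Each grey point is a gene with at least 100 UMIs, by the log2 ratio of SPINK7 and SPINK9 cells over KRT79 and CST6 cells in the straight (x axis) and the curly library (y axis); dotted lines mark 2-fold, rule genes are left out, purple points are named genes, and a gene with no UMI in a group is placed by the 0.5 UMI added to each sum. AQP5, S100A7A and HSD11B2 are high in both libraries, GATA6 and NFATC1 low in both, and LOR is low in straight (-2.87) and high in curly (2.197).

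In functional groups, counted over 11558 genes with at least 20 UMIs of which 4.08% were higher and 2.78% lower, 10 of 33 barrier lipid genes were at least 2-fold higher in both libraries than in the KRT79 and CST6 cells (ALOX12B, ALOXE3, CERS3, ELOVL1, ELOVL4, SPTLC3, SMPD3, LIPM, SDR9C7 and PLA2G4E) and 1 was lower, PLA2G2F. ALOX12B, the lipoxygenase that starts the making of the lipid envelope, was at 14.1 and 107 CPM against 2.74 and 20.7 CPM. The kallikreins KLK5, KLK8 and KLK12 were the 3 of 23 proteases that were higher, with KLK8 at 195 and 256 CPM against 37.8 and 48.2 CPM and KLK12 at 648 and 550 CPM against 35.8 and 174 CPM.

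AQP3, the water and glycerol channel of the lower living layers, was at 11120 and 5918 CPM against 2394 and 968 CPM, with a UMI in 98.4% and 85.5% of the cells. Of 20 antimicrobial and cytokine genes, 6 were higher (S100A8, S100A9, PGLYRP3, PGLYRP4, IL18 and IL36G) and 2 lower (IL1A and CXCL8). S100A8 was at 221 and 152 CPM against 31.2 and 6.96 CPM. In the curly library 1 cell held 51.4% of its UMIs.

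Of 36 transcription and Notch factors only ELF5 and POU2F3 passed 2-fold, both higher. ELF5 was at 197 and 165 CPM against 17.1 and 21.4 CPM. POU2F3, a POU factor of the suprabasal layers, was at 106 and 110 CPM against 37.0 and 29.2 CPM. The keratin KRT15 was higher in sum, at 1300 and 583 CPM against 288 and 185 CPM, while KRT5 and KRT17 were lower. Most straight KRT15 UMIs came from the 42 straight cells with the highest sums of KRT5, KRT14 and KRT15, at 3862 CPM. In the lowest and middle parts by these sums KRT15 was at 53.8 and 83.8 CPM in straight. In curly it was at 44.7 and 155 CPM there, so these parts lay below the KRT79 and CST6 cells. KRT15 itself helped to cut the parts, so this split is a description. CLDN4, a tight junction claudin, was lower, at 178 and 326 CPM against 959 and 1223 CPM. The cornified envelope list gave 3 higher of 19 (KPRP, SPRR4 and TGM3) and none lower, and of 13 desmosome genes none passed in either direction.

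The genes lowest against the KRT79 and CST6 cells were ILDR1, HAS1, LOC101113251, PLA2G2F, ARHGAP28, THBS2, GATA6, LOC101112509, CALHM5 and NFATC1. HAS1, a hyaluronan synthase, had 4 and 1 UMIs in the SPINK7 and SPINK9 cells, or 2.82 and 1.45 CPM, against 52.0 and 43.1 CPM. GATA6, a factor of the sebaceous duct and upper follicle, had 2 straight UMIs and no curly one, and against a floor of 3 UMIs it was at least 5.44-fold lower in the curly cells. NFATC1, a factor of follicle stem cells, likewise had 2 and 0 UMIs, at least 4.46-fold lower in the curly cells. ARHGAP28 and CALHM5 had no UMI in either library, with bounds of 3.81 and 2.05-fold for ARHGAP28 and 1.70 and 2.43-fold for CALHM5.

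FLG came from few of the cells, and those cells differed in depth and in other genes between the libraries. FLG was at 20 CP10K or more in 16 straight and 10 curly cells, which had median depths of 1552 and 7759.5 UMIs against 12088 and 9102.5 in the remaining cells. The highest FLG was 771 CP10K in a straight and 1387 CP10K in a curly cell. Over all cells, the straight library had 318 CPM of FLG and the curly library 4895 CPM, with 4 and 3 cells holding most of these UMIs. Without the FLG-high cells FLG was at 80.0 and 30.1 CPM and the order of the libraries turned, from a log2 ratio of 3.94 to one of -1.38. Cells with as much FLG also stood on the other side of the rule, 4 in the straight and 14 in the curly KRT79 and CST6 cells.

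FLG, CNFN and SPINK9 add to the same sum of the rule and ASPRV1 to the other, so a cell low in FLG had to qualify through another gene, and the split by FLG partly fixes how these 4 genes divide. LOR, CSTA, CASP14, KRT10 and AQP3 are outside the rule. In the curly FLG-high cells the summed levels of several granular layer genes were higher than in the other curly cells. LOR was at 20 CP10K or more in 7 of these 10 and in 1 of the other 52 curly cells, CNFN in 8 and 2, and ASPRV1, a protease that cuts filaggrin, in 7 and 1. SPINK9 reached this level in none of the 10 and in 19 of the 52, and AQP3 in 2 of the 10 and 45 of the 52. Summed over the 10 cells, LOR was at 24866 CPM against 1885 CPM in the others, CSTA, an envelope protein, at 12735 against 538 CPM, and CASP14, a protease of the cornified layers, at 4340 against 147 CPM. Their KRT10 was at 13536 against 39276 CPM.

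The same genes were higher in sum in the straight FLG-high cells, at lower levels than in curly and from few UMIs. CASP14 was at 945 CPM (41 UMIs) against 80.0 CPM in the other straight cells, CSTA at 415 (18 UMIs) against 96.0 CPM, and LOR at 92.2 (4 UMIs) against 14.5 CPM. CDSN was at 438 against 10.9 CPM, with 19 UMIs in 3 cells, and SPRR4, another envelope gene, at 2214 against 85.1 CPM, with 96 UMIs in 5 cells. LOR reached 20 CP10K in none of the 16, CNFN in 1 and ASPRV1 in 2, while SPINK9 reached it in 7 and KRT10 in 15 of them. AQP5 reached it in 4 of the 16 and in none of the other 111 straight cells. Their summed KRT10 was at 63232 against 41536 CPM, S100A7A at 54515 against 12451 CPM and KRT4 at 2998 against 723 CPM. The shallow depth of these 16 cells moved with this pattern, and its part was not tested.

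**Figure D4:**
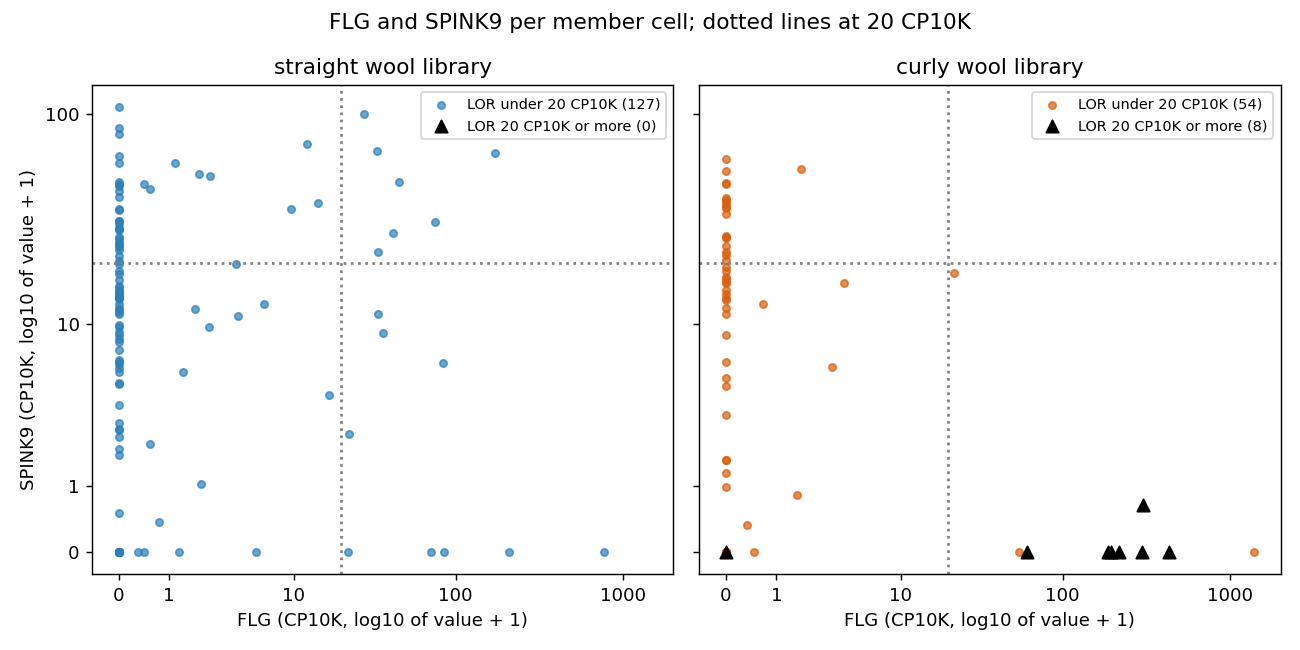
FLG (x axis) and SPINK9 (y axis) in each of the 127 straight and 62 curly SPINK7 and SPINK9 cells, as CP10K on log10 axes of value + 1, with dotted lines at 20 CP10K and triangles for cells with LOR at 20 CP10K or more. In the straight library 7 cells lie above both lines and no cell has LOR at this level; in the curly library no cell lies above both lines, and 7 of the 8 LOR cells lie to the right. FLG and SPINK9 both add to the sum that chose the cells, so a cell low in both had to qualify through another gene.

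The cells were also compared by their basal keratins, divided in each library into 3 parts by the sum of KRT5, KRT14 and KRT15, with 42 straight and 20 curly cells in the part with the highest sums, from 43.5 to 635 and from 23.3 to 734 CP10K. COL17A1 was at 384 CPM in that part and at 5.21 CPM in the part with the lowest sums in straight, and at 34.4 and 6.39 CPM in curly, where these are 7 and 2 UMIs. KRT10 was at 22249, 52692 and 51213 CPM from the highest to the lowest part in straight and at 29029, 45723 and 31985 CPM in curly. KRT2 was at 54.2, 723 and 743 CPM in straight and at 584, 1364 and 652 CPM in curly. Both keratins were highest in the middle part in curly.

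In the curly library most UMIs of the late genes LOR and FLG came from the cells with the fewest basal keratins. LOR had 4035 of its curly UMIs in the part with the lowest basal keratins, 161 in the middle part and 3 in the highest, and in straight 11, 10 and 3. FLG had 2417, 950 and 16 in curly and 140, 294 and 17 in straight. Few curly cells held most of these UMIs, so they set which part was high. LOR was at 20 CP10K or more in 8 curly cells and FLG in 10. S100A7A was at 21890, 16739 and 1065 CPM from the lowest to the highest part in straight and at 1598, 19933 and 3843 CPM in curly, where the middle part was highest. The median depths of the lowest, middle and highest parts were 12088, 4425 and 11738 UMIs in straight and 12765, 6120 and 8612.5 UMIs in curly, and their part was not tested.

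**Figure D5:**
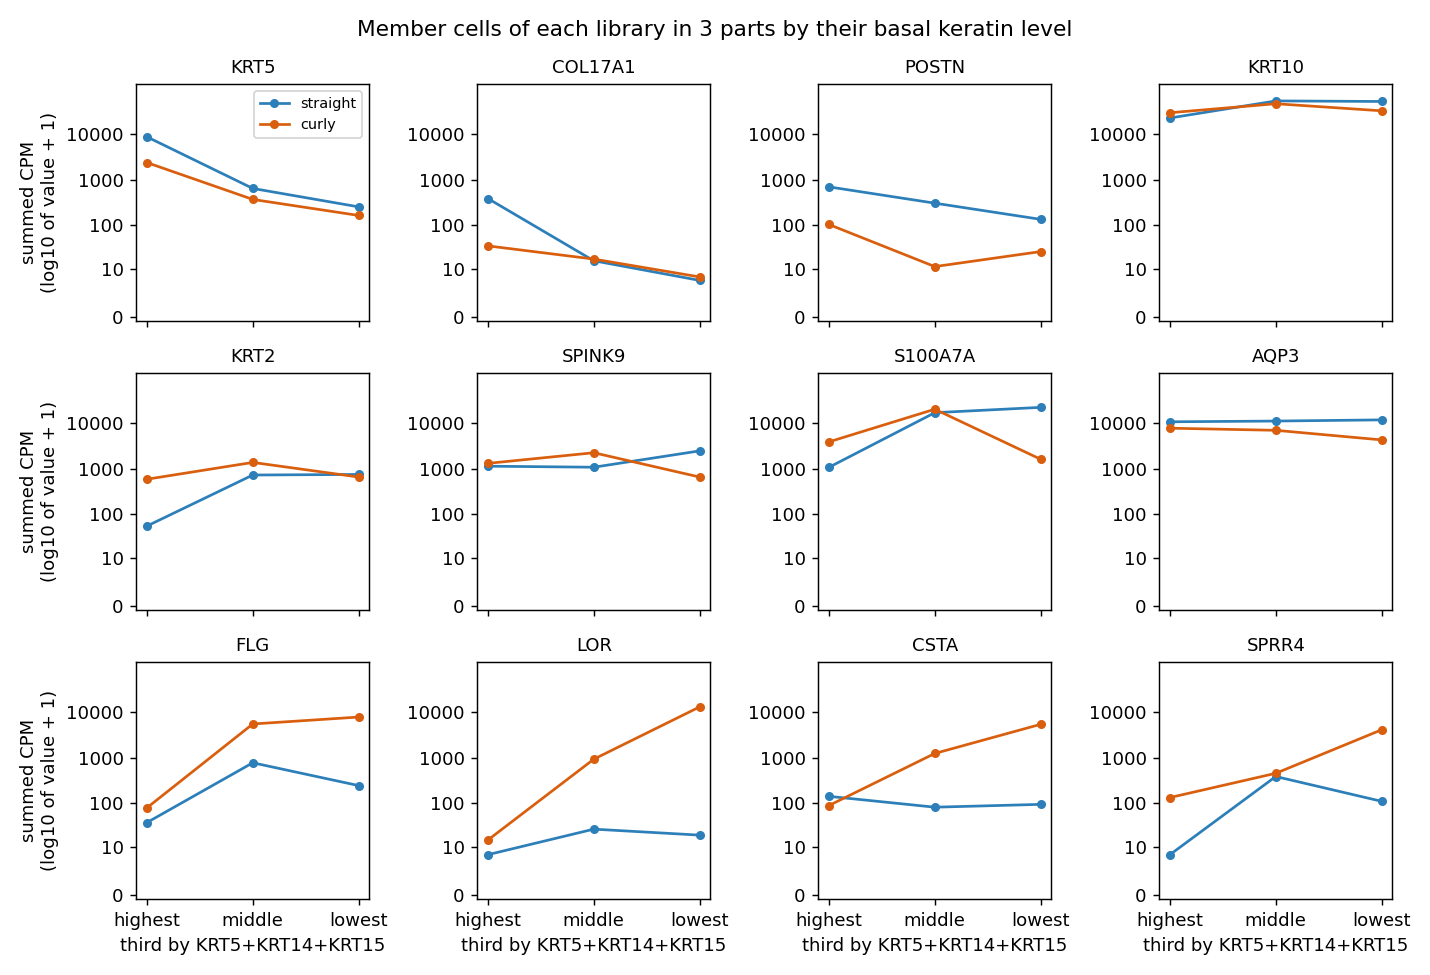
Summed CPM (log10 axis of value + 1) of 12 genes in the straight (blue) and curly (orange) SPINK7 and SPINK9 cells, divided in each library into 3 parts from the highest to the lowest summed KRT5, KRT14 and KRT15. COL17A1 is lowest where the basal keratins are lowest in both libraries, and LOR is at 12894 CPM there in the curly cells but at 26.2 CPM or less in every part of the straight cells. Few cells hold most of the curly LOR UMIs, and 8 curly cells reach 20 CP10K.

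Between the wool types, 131 of 2243 genes with at least 100 UMIs in the SPINK7 and SPINK9 cells (5.84%) were at least 2-fold higher in the curly and 94 (4.19%) at least 2-fold lower, with a median log2 ratio of -0.09. These compare 1 library with 1 library. Without the FLG-high cells the counts were 88 and 78. Summed over the cells, the curly library had more of the cornified envelope and interferon genes, and the straight library more of the basal layer genes.

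Over genes with at least 20 UMIs, of which 7.77% were higher in curly and 7.53% lower, 13 of 21 cornified envelope genes were higher and none lower, KRTDAP, CNFN and CRCT1 of the rule among them, with a median log2 ratio of 2.36 against -0.06 for all genes. Without these 3 rule genes 10 of 18 were higher, with a median of 1.68, and without the FLG-high cells as well 6 of 16, with a median of 0.89. The straight cells had 16.9 CPM of LOR and the curly cells 6075 CPM, but 1 curly cell held 54.9% of its curly UMIs. CSTA was at 106 and 2762 CPM, and CDSN, which holds the outermost cells together, at 24.0 and 534 CPM. Without the FLG-high cells the median of the list was 0.91, with LOR at 14.5 and 1885 CPM. Of the 52 curly cells then left, 13 had a UMI of LOR, and the median was 0 CP10K. Only 1 of these cells reached 20 CP10K, at 483 CP10K. PSORS1C2 was at 3.52 and 1000 CPM, with 74.2% of its curly UMIs in 1 cell, and at 3.64 and 31.8 CPM without the FLG-high cells. The KRT79 and CST6 cells also had more LOR in curly, with 736 UMIs of 5840547 in straight and 15045 of 11353913 in curly. CNFN of the rule had 330 and 3020 UMIs there. Over those cells, envelope genes outside the rule had median log2 ratios of 0.21 in straight and 1.01 in curly. Between the wool types, barrier lipid genes were higher in curly for 14 of 26 and lower for none, with a median of 1.08. This median was 0.39 over the members with at least 100 UMIs.

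The basal keratin and adhesion genes were lower in the curly cells for 7 of 12 and higher for none, with a median of -1.09. KRT5 was at 3075 and 861 CPM, with a log2 ratio of -1.84 (-1.96 to -1.71), and KRT14 at 4235 and 1217 CPM, with one of -1.80 (-1.90 to -1.69). POSTN, a matrix protein, was at 361 and 44.9 CPM, and COL17A1 at 131 and 17.4 CPM. Most straight COL17A1 UMIs also came from the 42 straight cells, at 384 CPM. KRT10 was close in the libraries, at -0.29 (-0.31 to -0.27), and so was KRT1, at -0.24. In the KRT79 and CST6 cells KRT5 was also lower in curly, at 6713 and 3007 CPM, and POSTN at 280.5 and 66.1 CPM, whereas in the cells with basal keratins KRT5 was at 12897 and 11668 CPM.

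The interferon genes were higher for 10 of 11 in the curly cells. IFI6, an interferon-induced mitochondrial protein, was at 8.46 CPM in the straight and 4711 CPM in the curly cells, with a UMI in 5.51% and 90.3% of cells, and ISG15, a ubiquitin-like modifier, at 2.82 and 256 CPM. The difference was not particular to these cells. Summed over the list, the SPINK7 and SPINK9 cells were at 486 and 6340 CPM, the KRT79 and CST6 cells at 480 and 5426 CPM, the cells with basal keratins at 616 and 11923 CPM and the VIM-positive cells at 1538 and 17236 CPM. The curly FLG-high cells had little IFI6, 206 CPM against 5716 CPM in the other curly cells.

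Smooth muscle genes were also higher in the curly cells, from few cells. ACTA2, the smooth muscle actin, was at 2.82 and 324 CPM and TAGLN at 7.05 and 737 CPM. In each, 1 curly cell held 65.2% and 61.3% of the UMIs, and without 3 curly cells in which both genes summed to at least 20 CP10K they were at 16.9 and 21.5 CPM in curly. The other loci among the 10 highest were LOC101113168, LOC114117806 and LOC101122482, with log2 ratios of 7.38, 7.25 and 7.17, and 1 curly cell held 53.6% of the LOC101122482 UMIs.

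The lowest genes in curly over straight were MMP7, FABP4, LOC114115666, LOC101104285, HAMP, IGFBP3, TFPI2, POSTN, COL17A1 and CDO1. MMP7, a matrix metalloprotease, had 117 straight UMIs and none in curly, which makes it at least 19.0-fold lower against a floor of 3 UMIs, but 91.5% of these UMIs lay in 1 straight cell. HAMP and TFPI2 likewise had 61.1% and 66.7% of their straight UMIs in 1 cell each. FABP4, a fatty acid binding protein, was at 348 and 7.23 CPM in these cells, from 31.5% of the straight cells, and at 3.77 and 7.66 CPM in the KRT79 and CST6 cells. IGFBP3 was at 314 and 27.5 CPM, in 52.0% and 16.1% of cells.

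Some of the largest differences lay in pairs of loci that differed in opposite directions. LOC101104285 was at 7628 CPM in the straight and 454 CPM in the curly cells, and LOC114113226 at 29.6 and 5832 CPM. RefSeq places LOC114113226 near S100A7A in the S100 gene group, with other loci between them, in ARS-UI_Ramb_v3.0 (the files were made on a different build). S100A7A and LOC114113226 summed to 13766 CPM in straight and 12721 CPM in curly, a log2 ratio of -0.11, and LOC101104285 and LOC114113226 to 7657 and 6287 CPM, a log2 ratio of -0.28. Whether near-identical copies share reads at these loci was not tested, so their single values are uncertain. The direction of each was the same in all other cells, with LOC101104285 at 37.0 and 1.03 CPM and LOC114113226 at 0.142 and 35.5 CPM.

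Among the proteases and their inhibitors, the order of the libraries depended for some genes on the FLG-high cells and on CST6. Leaving CST6 out of the rule lets in KRT79 and CST6 cells. SPINK7 was at 4485 and 6562 CPM and SPINK9 at 1646 and 1240 CPM, with log2 ratios of 0.55 (0.49 to 0.60) and -0.41 (-0.52 to -0.29). Without the FLG-high cells SPINK7 turned to 4163 and 2794 CPM, a log2 ratio of -0.57, and with CST6 left out of the rule its ratio was -0.58. The SPINK9 ratio was -0.10 without the FLG-high cells and -1.65 with CST6 left out. SPINK5 was at 706 and 2596 CPM and KLK5 at 222 and 1353 CPM, both at least 2-fold higher in curly, as were 9 of 22 proteases, or 8 of 21 without ASPRV1 of the rule, with CTSC and CAPN1 lower. Without the FLG-high cells 3 of 19 were higher and 3 lower. The KLK5 log2 ratio was 1.63 without the FLG-high cells and 1.37 with CST6 left out of the rule. The KLK8 ratio was 0.40 (0.12 to 0.67), and 0.10 and -0.03 under those changes. The KLK12 ratio was -0.24 (-0.41 to -0.06), and without the FLG-high cells KLK12 was at 604 and 241 CPM, a ratio of -1.32.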

How the data were processed

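Skins of 3 lambs per wool type were pooled and each pool gave 1 library on the 10x Genomics platform. The authors aligned the reads with Cell Ranger (3.0.2 in the submitters' processing notes, another version in the methods of the paper) to Oar_rambouillet_v1.0, filtered cells, and deposited 1 table of natural log values, ln of 1 plus UMIs scaled to 10000 per cell. UMI counts had been assumed in planning and were recovered from these natural log values: 100% of 28552149 values above 0 were whole within 0.01. The libraries held 57956122 UMIs in 6452 straight and 77634565 in 7585 curly cells; the 127 and 62 cells of interest held 1419004 and 691144, so that 3 counts equal 2.11 and 4.34 CPM. Of the barcodes, 70 occur in both libraries, 1 of them in a cell of interest. Fewer cells are in the table than the study counts. The study's supplement names more than 1 limit on detected genes per cell, and cells in the table have as few as 302 genes. A minimum of 1750 genes, the higher of those limits, was applied as an alternative only.

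UMIs were summed per group and library and divided by their total; intervals are exact 95% Poisson, Clopper-Pearson or binomial-split intervals. Log2 ratios have 0.5 UMI added. No test was possible with 1 library per group, and a gene counts as higher or lower at 2-fold. The log2 ratios and binomial-split intervals were tested on simulated Poisson sums per library, without simulated cells or the selecting rule. The cells and gene lists (458 genes, 396 in the table) were chosen with earlier results of these data known. Named genes are the rule's 15, list members, the 10 highest and 10 lowest of each comparison and the 10 leading genes against all other cells, among genes with at least 100 UMIs. Symbols for 307 of 3912 LOC identifiers, KRT14, KRT15 and S100A7A among them, are RefSeq's for ARS-UI_Ramb_v3.0. Doublets were not removed in the main analysis; leaving out the 6% highest Scrublet scores per library was an alternative. Scripts ran in Python 3.11.15 with scanpy 1.11.5, scipy 1.17.1, matplotlib 3.10.9, numpy 2.4.6 and pandas 2.3.3. The counts for the junction and transport gene lists are not reported here.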

Additional observations from a re-analysis of the deposited data

Results flagged for a closer look

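For 7 genes the log2 ratio of SPINK7 and SPINK9 cells over KRT79 and CST6 cells passed 2-fold in opposite directions in the libraries, and none of these differences was tested. LOR was at -2.87 in straight and 2.197 in curly, the late keratin gene KRT23 at -2.09 and 1.34, the protease gene KLK14 at -2.01 and 3.24, the interleukin-36 antagonist IL36RN at -1.02 and 1.17 and LOC101122482 at -1.27 and 1.57. In the SPINK7 and SPINK9 cells KLK14 rested on 2 straight and 40 curly UMIs and IL36RN on 4 and 98. TOP2A, a gene of dividing cells, was at -1.03 and 3.15, and 96.7% of its 30 curly UMIs lay in 1 cell. MCM6, of the replication helicase, was at 1.004 and -1.19, from 28 and 2 UMIs.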

How the results depend on the processing

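No paired analysis was possible because each wool type is 1 library. The difference in share of cells was -1.15 percentage points and turned to 0.36 with CST6 left out of the rule (3.52% straight, 3.88% curly), a setting chosen after seeing the data like all others on CST6, single rule genes, FLG-high or ACTA2 and TAGLN-high cells; with CST6 less its VIM-positive median the shares were 2.96% and 2.23%. With marker sums 2 times apart they were 1.52% and 0.435%, without SPINK7 in the rule 1.64% and 0.593%, without SPINK9 1.52% and 0.541%, and with the study's minimum number of genes per cell 1.11% in curly. The curly over straight counts of 131 higher and 94 lower were 67 higher with sums 2 times apart, 260 and 234 without CST6, 163 lower with CST6 less its median, 524 and 508 at a minimum of 20 UMIs and 2408 and 1997 at 1 UMI. Over the KRT79 and CST6 cells, 185 higher and 195 lower became 123 higher with centring, 301 lower without CST6, 320 lower with CST6 less its median, 472 and 321 at 20 UMIs and 2193 and 321 at 1 UMI. Over cells with basal keratins, 564 higher became 856 at 20 UMIs and 3485 at 1 UMI. Lower minimums test more genes.

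List medians moved by more than 0.5 (log2) as follows. At a minimum of 100 UMIs the curly over straight median was 1.11 for the cornified envelope and 0.39 for barrier lipids. Without CST6 in the rule it was 1.54 for the cornified envelope, -0.33 for sebaceous genes (0.34 before), 3.30 for interferon (1.61 before) and -1.08 for cycling genes (0.00055 before), and the LY6 family stood at 0.55 over the KRT79 and CST6 cells. Without the FLG-high cells it was 0.91 for the cornified envelope and -0.074 for proteases (0.46 before), and FLG itself turned to -1.38. Without the rule genes it was 1.68 for the cornified envelope. Cells with at least 3 of the 6 rule genes fell from 65.4% to 41.3% in straight and from 80.6% to 53.7% in curly when thinned. Of 1022 values of named genes under alternatives, 256 moved out of their limits, among them 53 of 86 with CST6 left out and 60 of 86 with CST6 less its median. For curly over straight, where 152 moved, the limits were the counting interval. For the ratios over KRT79 and CST6 cells and over all other cells, where 80 and 24 moved, they were 0.5 (log2) either side. The sign turned in 8 of the 1022 values, SPINK7 in curly over straight among them. In 1 of these the difference had been at least 2-fold. The cause of the shifts was not tested. A count of 0 limits a level only to 2.11 CPM in straight and 4.34 CPM in curly.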
